A study of Ovis aries with 9 samples.

Results

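The genes described here are 9 genes of the ovulating follicle, measured by RNA-Seq in the whole ovaries of 9 ewes. HAS2, PTX3, TNFAIP6, VCAN and CD44 make, hold or bind the hyaluronan matrix around the oocyte, and AREG, EREG, BTC and EGFR are EGF-like ligands and their receptor. They were taken by symbol from the 27174 rows of the count table, of which 24744 had at least 1 read. All 9 were found. HAS2 has no row under its own symbol and is read from LOC101110341, the locus number that the RefSeq annotation assigns to HAS2, while the other 8 genes carry their symbols.

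Dorset ewes (D4, D5 and D6), a low-fecundity breed with genotype given as wild type, served as controls. Small Tail Han ewes, a high-fecundity breed, were of the FecB genotype BB (FecBBFecBB; W1, W2 and W4, called Han BB) or of the genotype ++ (FecB+ FecB+; W6, W7 and W8, called Han ++). FecB is a mutation of BMPR1B, a receptor for bone morphogenetic proteins. All 9 were adult ewes treated with fluorogesterone acetate sponges and pregnant mare serum gonadotropin, and the ovaries were taken after the spontaneous estrus that followed the next cycle. The paper gives the time from detected estrus to collection as a range of hours, not for each ewe. Each group held 3 ewes with 1 library each. Breed and FecB genotype both differ between Han BB and Dorset, and any effect of the one cannot be told apart there from that of the other.

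After the surge of luteinizing hormone (LH), granulosa cells of a large follicle release the EGF-like ligands AREG, EREG and BTC, which are shed from the cell surface and activate EGFR on neighbouring granulosa and cumulus cells. Cumulus cells then switch on HAS2, PTX3, TNFAIP6 and PTGS2 and build a sticky hyaluronan matrix that loosens the cells around the oocyte before ovulation. The response is brief and belongs to few cells of an ovary. In a whole ovary, fewer cells of a type and less RNA per cell cannot be told apart.

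The shallowest library, W8, held 10803913 counts and the deepest, W7, held 20992535. Values are counts-per-million (CPM) of the library size after TMM scaling. Across all tested genes, W4 and D6 correlated with each other at a Spearman's rho of 0.978, and W4 and D4 at 0.870, the lowest value of any pair (rho is across genes, which are not independent replicates). W4 was the highest of the 9 libraries for 21.3% of the 16871 tested genes and D4 for 22.1%. Follicle markers were present in all libraries: FSHR lay between 5.42 and 14.4 CPM and INHA between 13.6 and 95.2 CPM. Some were near the floor, with the granulosa marker HSD17B1 at 1 read in W4. Oocyte transcripts were scarce, with GDF9 between 1.17 and 4.75 CPM and BMP15 at no more than 15 reads. Oviduct and ciliated cell markers were also present in every library. Their summed level over 12 genes was between 1275 and 2478 CPM in the Han ewes and between 564 and 1206 CPM in the Dorset ewes, with OVGP1 at up to 1824 CPM.

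With edgeR's quasi-likelihood test, none of the 9 genes differed between groups at the study's thresholds, an adjusted p under 0.05 with a fold change above 1.5 in either direction. All 9 passed the filter on low counts and were tested. The background was equally empty: the same rule called 0% of the 16871 tested genes in Han BB vs. Dorset, 0.00593% (1 gene) in Han ++ vs. Dorset, 0% in Han BB vs. Han ++ and 0% in both Han groups together vs. Dorset. DESeq2 called 38, 65, 2 and 88 genes of the whole table in these comparisons, and 0 of the 9 genes, as did limma voom for the 9. With the DESeq package at the same thresholds, the paper reports far more differential genes for each pair of groups. The cause of this difference was not tested. At an unadjusted p under 0.05, 1 of the 9 genes differed in Han BB vs. Dorset (TNFAIP6) and 1 in Han ++ vs. Dorset (EGFR), against 4.99% and 5.27% of all tested genes. No gene of the 9 did so in Han BB vs. Han ++ (background 1.97%) or in Han vs. Dorset (background 6.12%). For none of the 9 genes did the CPM values of 2 compared groups fail to overlap, in any comparison. In the whole table, this happened for 8.79% of tested genes in Han BB vs. Dorset, 11.1% in Han ++ vs. Dorset, 9.38% in Han BB vs. Han ++ and 3.76% in Han vs. Dorset. The comparisons with Dorset share the same 3 control libraries.

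**Figure D1:**
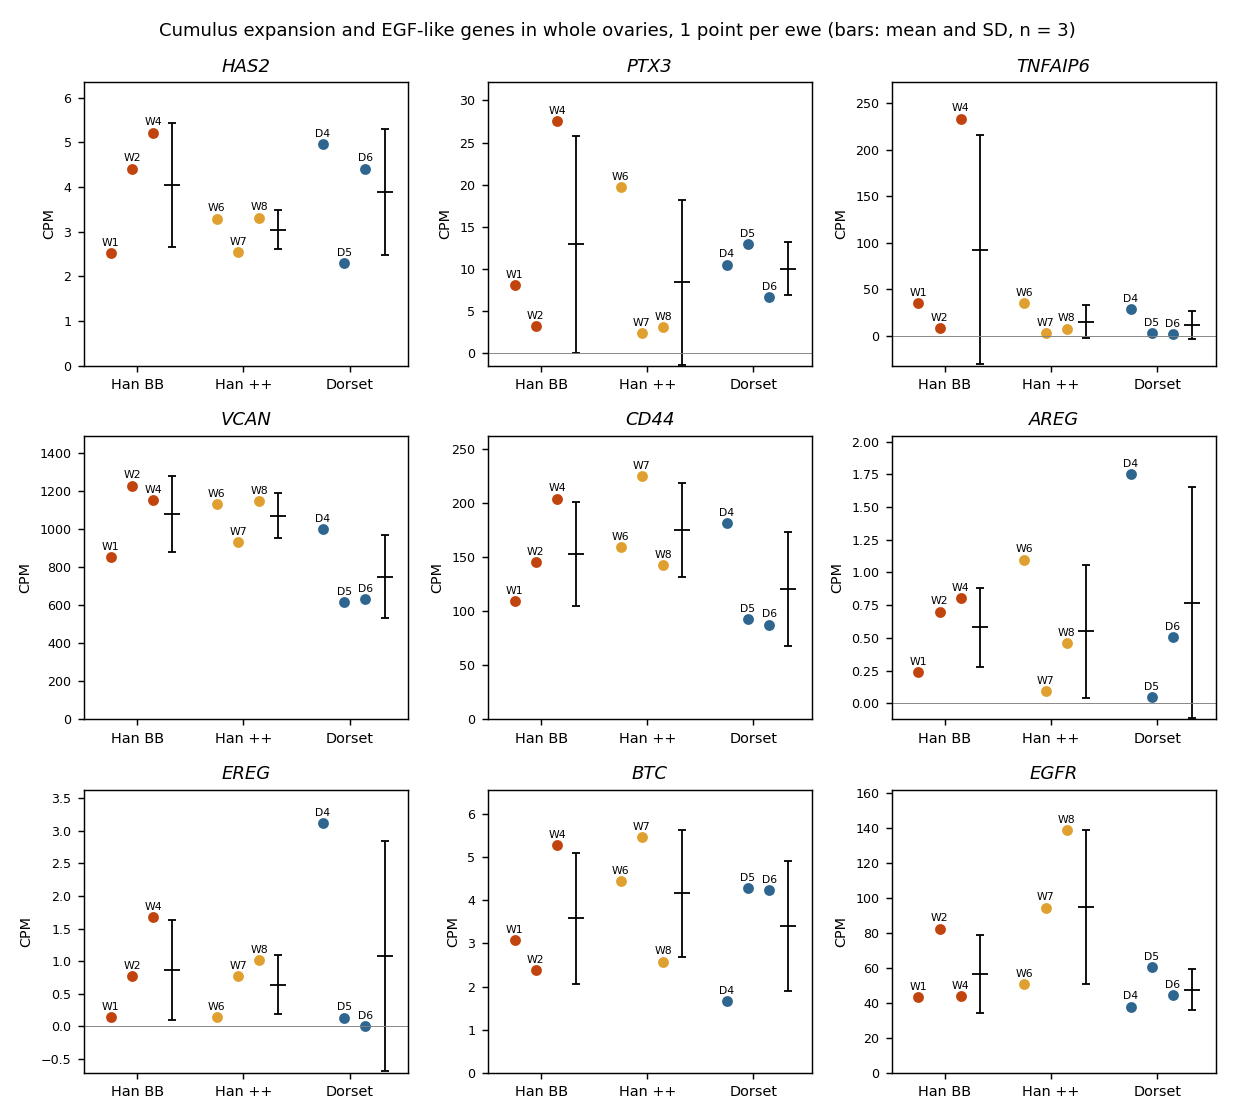
Level of each of the 9 genes in CPM (vertical axis, linear, a separate scale per gene) in Han BB, Han ++ and Dorset ewes. Each point is 1 ewe and carries its name, and the bars give the mean and SD of the group (n = 3). TNFAIP6 and PTX3 have W4 far above its group, while VCAN and CD44 have D5 and D6 at the bottom and D4 among the Han ewes.

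HAS2, the enzyme that makes the hyaluronan of the cumulus matrix, was found at 36 to 79 reads per library. Its level was 2.52 CPM in W1, 4.41 in W2 and 5.22 in W4 among Han BB ewes and 3.29 in W6, 2.53 in W7 and 3.32 in W8 among Han ++ ewes. The Dorset ewes had 4.96 CPM in D4, 2.30 in D5 and 4.41 in D6. The highest and lowest libraries differed 2.27-fold, and the 3 groups overlapped throughout. The means were 4.05 ± 1.39 CPM for Han BB, 3.05 ± 0.445 for Han ++ and 3.89 ± 1.41 for Dorset (SD, n = 3). Fold changes were small: the log2 value was 0.06 in Han BB vs. Dorset, with a 95% interval from -0.94 to 1.06, -0.35 in Han ++ vs. Dorset (-1.35 to 0.65) and 0.41 in Han BB vs. Han ++ (-0.59 to 1.41). The biological coefficient of variation of HAS2 (BCV, the spread between ewes of a group beyond counting error) was 0.409, below that of most genes of its level: 26.3% of the 2887 tested genes within 2-fold of its level had a lower one.

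PTX3, a pentraxin that cross-links the hyaluronan chains, varied far more. In Han BB ewes it was at 8.02 CPM in W1, 3.22 in W2 and 27.6 in W4. In Han ++ ewes it was at 19.7 CPM in W6, 2.40 in W7 and 3.04 in W8. The Dorset ewes had 10.5 CPM in D4, 12.9 in D5 and 6.65 in D6, inside the range of either Han group. The 11.5-fold range thus opened within the Han groups, where 1 ewe of each genotype, W4 and W6, was high. Between groups, the log2 fold change was 0.37 in Han BB vs. Dorset (SE 0.85), -0.25 in Han ++ vs. Dorset (SE 0.85) and 0.62 in Han BB vs. Han ++ (SE 0.85), each smaller than its error. Without W6, the log2 fold change in Han ++ vs. Dorset was -1.91 (unadjusted p = 0.0378), and the difference between Han BB and Han ++ rose to 2.29 (unadjusted p = 0.0178). Without W4, the sign in Han BB vs. Dorset turned to -0.84 (unadjusted p = 0.314).

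TNFAIP6, also known as TSG-6, moves heavy chains of inter-alpha-trypsin inhibitor onto hyaluronan and so stabilizes the matrix. It had the widest range of the 9 genes among those with reads in every library. W4 held 3494 reads, or 234 CPM, while the other Han BB ewes had 35.2 CPM (W1) and 8.76 CPM (W2). The Han ++ ewes had 35.3 CPM in W6, 3.39 in W7 and 7.83 in W8, and the Dorset ewes 29.3 in D4, 3.20 in D5 and 2.40 in D6. Each group had at least 1 ewe at 29.3 CPM or above and at least 1 at 8.76 CPM or below, so the groups overlapped. W4 was 6.62-fold above the next library (W6) and 97.3-fold above the lowest (D6).

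The TNFAIP6 means were 92.6 ± 123 CPM for Han BB, 15.5 ± 17.3 for Han ++ and 11.6 ± 15.3 for Dorset (SD, n = 3). The log2 fold change in Han BB vs. Dorset was 3.01 (SE 1.32, edgeR unadjusted p = 0.0428, adjusted p = 0.975), and that in Han BB vs. Han ++ was 2.57 (SE 1.28, unadjusted p = 0.0708, adjusted p = 0.999). Han ++ vs. Dorset gave 0.44 (95% interval -2.28 to 3.16). The Han BB difference rested on W4: without this ewe it was 0.96 (unadjusted p = 0.387) against Dorset and 0.49 (unadjusted p = 0.655) against Han ++. It also moved with the controls, since without D4 it rose to 5.04 (unadjusted p = 0.00634) and without D5 it was 2.62 (unadjusted p = 0.122). The BCV of TNFAIP6, 0.955, was higher than that of 93.5% of all tested genes and of 99.8% of the 5107 tested genes within 2-fold of its level. That level is the mean over the libraries, which W4 raised above the median of 8.76 CPM. For PTX3 the shares were 85.1% of all tested genes and 97.8% of the 4214 genes within 2-fold of its level.

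Other genes in W4 are given beside this value. PTGS2, the prostaglandin synthase induced with the matrix genes, was at 17.7 CPM in W4 and between 3.22 and 8.77 CPM in the other 8 ewes, a gene chosen for mention after its values were seen. The other LH-induced genes did not share one direction in W4: PGR, ADAMTS9, RGS2 and PTGER2 were also highest there, CEBPB (4.55 CPM), SERPINE2 (288 CPM) and GREM1 (0 reads) were lowest, and the sum over the LH list was the lowest of the 9 ewes, at 1183 CPM. ADAM17, the protease that sheds the EGF-like ligands, was at 131 CPM in W4 and 136 in D6 but between 45.5 and 66.9 CPM in the other 7, and was likewise chosen after the fact. D6, which was closest to W4 across all genes, had the lowest TNFAIP6 level of all ewes. In W4 the granulosa markers summed to 162 CPM, toward the lower end of the 126 to 419 CPM seen over all libraries. INHBA, at 91.3 CPM, made up most of this sum and was near the middle of the 9 ewes, as were INHBB and NR5A2. FSHR (5.42 CPM), INHA (13.6 CPM), AMH (0.335 CPM) and HSD17B1 (0.0669 CPM) were at their lowest in W4, and FST and SERPINA5 at their second lowest. The theca and luteal markers of W4 summed to 762 CPM (504 to 2836 over all libraries), and the myeloid and neutrophil markers to 440 CPM (151 to 481). The part of cell composition in the TNFAIP6 level of W4 was not tested.

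**Figure D2:**
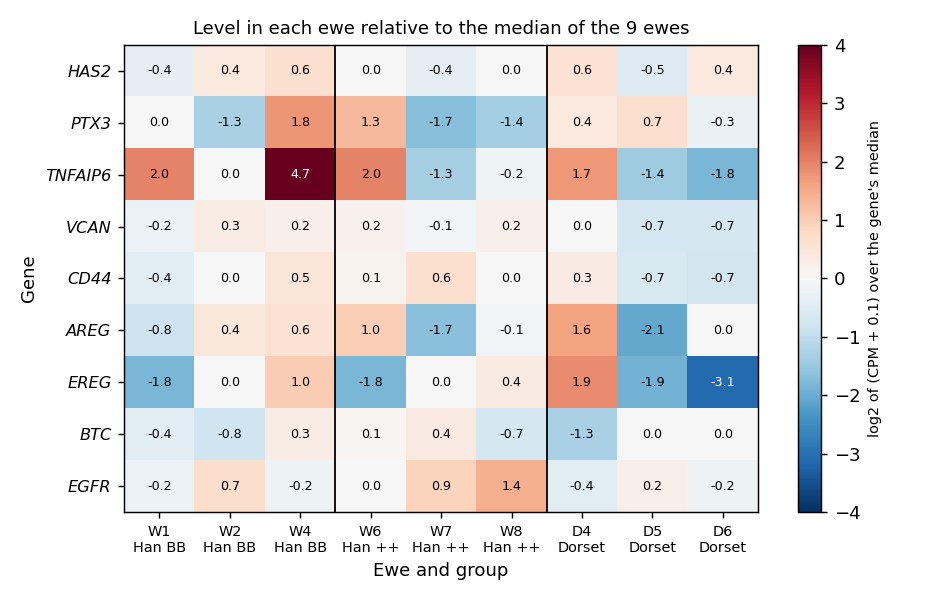
Level of each gene in each ewe relative to the gene's median over the 9 ewes, as log2 of (CPM + 0.1) over the median (printed value, with the colour scale ending at 4), with black lines between the groups. TNFAIP6 in W4 stands at 4.7, the highest value on the map, and EREG in D6 at -3.1, the lowest, while HAS2, VCAN and CD44 stay within 0.73 of their medians in every ewe.

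VCAN (versican), a large proteoglycan that binds hyaluronan and is cut by ADAMTS1 during ovulation, was covered by 10298 to 23774 reads per library. Its level was 854 CPM in W1, 1230 in W2 and 1155 in W4, against 1134 in W6, 935 in W7 and 1149 in W8. The Dorset ewes had 1002 CPM in D4, 618 in D5 and 634 in D6. D5 and D6 lay below all 6 Han ewes, and D4 lay among them. The means were 1080 ± 199 CPM for Han BB, 1073 ± 120 for Han ++ and 751 ± 218 for Dorset (SD, n = 3). This gave a log2 fold change of 0.52 (SE 0.31, unadjusted p = 0.122) in Han BB vs. Dorset and 0.51 (SE 0.31, unadjusted p = 0.128) in Han ++ vs. Dorset, with adjusted p of 0.988 and 1.00. Between the Han genotypes it was 0.01, with a 95% interval from -0.68 to 0.70.

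CD44, a hyaluronan receptor of cumulus cells, leukocytes and many other cells, followed VCAN in the Dorset ewes. Its level was 109 CPM in W1, 145 in W2 and 204 in W4, 159 in W6, 225 in W7 and 143 in W8, and 182 in D4 with 92.5 in D5 and 87.7 in D6. Again D5 and D6 were the lowest of the 9, and D4 was exceeded by W7 and W4 alone. CD44 had a log2 fold change of 0.34 (SE 0.37) in Han BB vs. Dorset, 0.54 (SE 0.37, unadjusted p = 0.170) in Han ++ vs. Dorset and -0.20 (SE 0.37) in Han BB vs. Han ++. Both genes depended on D4: without it the Han vs. Dorset log2 fold change was 0.78 for VCAN (unadjusted p = 0.0175) and 0.86 for CD44 (unadjusted p = 0.0216). With 2 Dorset ewes left, these values rest on a smaller control group.

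D5 and D6 differed from D4 in other cell type markers as well. The summed theca and luteal markers were at 504 CPM in D5, 1026 in D6 and 2836 in D4, and oxytocin (OXT), a product of the sheep corpus luteum, was at 1.89, 49.7 and 782 CPM. Its members did not all follow the sum. INSL3 was highest in D5 (13.4, 9.05 and 10.4 CPM in D5, D6 and D4) and FDX1 in D6 (27.5, 85.2 and 83.2 CPM). The others were highest in D4, but for STAR (19.7, 128 and 146 CPM) and PTGFR (72.7, 146 and 164 CPM) D6 was nearer to D4 than to D5. In the Han ewes the theca and luteal sum ran from 762 CPM in W4 to 2642 in W2. The myeloid and neutrophil markers summed to 151 CPM in D5, 239 in D6 and 336 in D4, with the Han ewes between 300 and 481. ITGAM, the integrin of myeloid cells, was at 8.02, 15.2 and 33.0 CPM in D5, D6 and D4 and between 38.9 and 74.7 CPM in the Han ewes. The myeloid and neutrophil list did not move as a whole either. CD68, at 26.9 CPM in D5, 36.0 in D6 and 187 in D4, put D4 above D6 in the sum. PTPRC (53.7, 105 and 37.7 CPM) and AIF1 (15.9, 45.9 and 52.8 CPM) rose most from D5 to D6. PTPRC and CSF1R (42.9, 34.1 and 10.8 CPM) were lowest in D4, and CD14, a monocyte marker, was at no more than 1.24 CPM in any ewe. VCAN and CD44 were nearly at their highest in W4. The theca and luteal sum of W4 was below that of D6, with OXT at 9.57 CPM in W4. STAR (167 against 128 CPM), FDX1 (106 against 85.2 CPM), HSD3B1 and LHCGR were higher in W4 than in D6. The part of luteal tissue, leukocytes or oviduct epithelium in the VCAN and CD44 levels was not tested.

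**Figure D3:**
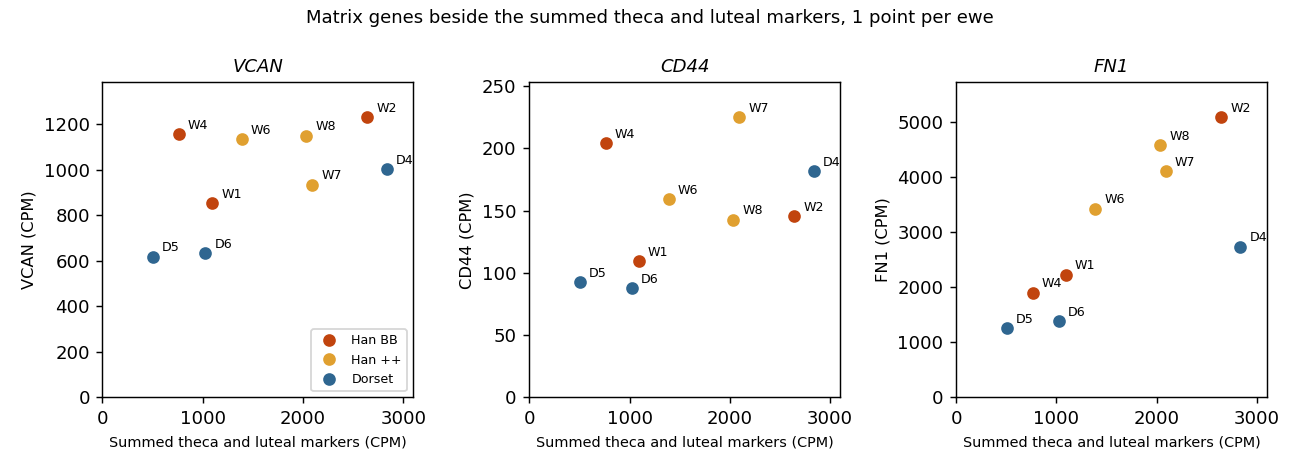
VCAN, CD44 and FN1 in CPM (vertical axes) against the summed level of 11 theca and luteal markers in CPM (horizontal axes), 1 point per ewe, coloured by group. D5 and D6 sit at the lower left for all 3 genes, D4 has the highest marker sum, at 2836 CPM, and W4 is high in VCAN and CD44 at a marker sum of 762 CPM.

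AREG (amphiregulin), a ligand of EGFR, was read from 1 to 23 reads per library, so counts are given. The Han BB ewes had 5 reads in W1, 10 in W2 and 12 in W4. The Han ++ ewes had 23 in W6, 2 in W7 and 5 in W8, and the Dorset ewes 18 in D4, 1 in D5 and 9 in D6. The highest level, 1.75 CPM in D4, and the lowest, 0.0451 CPM in D5, both came from the control group, a 38.9-fold range. The 18 reads of D4 correspond to 1.54 CPM of the unscaled total (95% Wilson interval 0.972 to 2.43) and the 1 read of D5 to 0.0482 (0.00851 to 0.273). These intervals do not overlap, and they cover counting error only. The log2 fold changes were -0.36 in Han BB vs. Dorset (95% interval -3.17 to 2.44), -0.43 in Han ++ vs. Dorset (-3.23 to 2.38) and 0.06 in Han BB vs. Han ++ (-2.74 to 2.86).

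EREG (epiregulin), the ligand next to AREG in function, had 3 reads in W1, 11 in W2 and 25 in W4. The Han ++ ewes had 3 in W6, 17 in W7 and 11 in W8. The Dorset ewes had 32 in D4 and 3 in D5, and D6 had 0 reads of 17990657, which allows up to 0.167 CPM of the unscaled total when 0 is taken to allow 3 reads (95% Wilson upper limit 0.214). D4 was the highest of all 9 ewes and D6 the lowest. The log2 fold changes were -0.29 in Han BB vs. Dorset (95% interval -3.63 to 3.05), -0.72 in Han ++ vs. Dorset (-4.10 to 2.65) and 0.43 in Han BB vs. Han ++ (-2.92 to 3.78), so a difference of several-fold in either direction was not detectable at this depth and spread. The sign against Dorset rested on D4: without it the fitted values were 3.47 in Han BB (unadjusted p = 0.0598) and 3.03 in Han ++ (unadjusted p = 0.0905), from 3 and 0 remaining control reads. For AREG they turned to 1.07 (unadjusted p = 0.462) and 1.01 (unadjusted p = 0.488).

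D4 was the highest library for 40.3% of the 3246 tested genes with a mean under 2 CPM, a group of genes formed after the data were seen, compared with 22.1% of all tested genes. The high AREG and EREG counts of D4 stand beside this share. AREG and EREG did not follow each other ewe by ewe: W6 had the second highest AREG level but shared the low EREG counts of W1 and D5, while W8, with 5 AREG reads, had the highest EREG level of the Han ++ ewes, at 1.01 CPM.

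BTC (betacellulin), a ligand of EGFR and ERBB4, had 17 to 121 reads. Its level was 3.09 CPM in W1, 2.38 in W2 and 5.28 in W4, then 4.44 in W6, 5.47 in W7 and 2.58 in W8, and 1.65 in D4 with 4.28 in D5 and 4.24 in D6. D4, highest in AREG and EREG, was lowest in BTC, and the groups overlapped. The means were 3.58 ± 1.51 CPM for Han BB, 4.16 ± 1.47 for Han ++ and 3.39 ± 1.51 for Dorset (SD, n = 3). The log2 fold change was 0.07 in Han BB vs. Dorset (95% interval -1.07 to 1.20), 0.29 in Han ++ vs. Dorset (-0.84 to 1.42) and -0.22 in Han BB vs. Han ++ (-1.35 to 0.90). The genes of the 3 ligands and of a further one, EPGN, lie together in the RefSeq sheep annotation, with 1 annotated gene between EREG and AREG and 0 between AREG and BTC. Their levels did not share an order over the ewes. EPGN, with at most 13 reads (in D4), was not tested.

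EGFR, the receptor of these ligands, had 389 to 2086 reads. The Han ++ ewes had 50.9 CPM in W6, 94.4 in W7 and 139 in W8. The Han BB ewes had 43.5 CPM in W1, 82.4 in W2 and 43.9 in W4, and the Dorset ewes 37.9 in D4, 60.5 in D5 and 44.3 in D6. W7 and W8 were the highest of the 9 ewes, but W6 was below D5, so the groups overlapped. The means were 94.6 ± 43.9 CPM in Han ++, 56.6 ± 22.3 in Han BB and 47.6 ± 11.7 in Dorset (SD, n = 3).

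The log2 fold change of EGFR was 0.99 in Han ++ vs. Dorset (SE 0.40, edgeR unadjusted p = 0.0314, adjusted p = 0.891). It was -0.74 in Han BB vs. Han ++ (SE 0.40, unadjusted p = 0.0907) and 0.25 in Han BB vs. Dorset (SE 0.40, unadjusted p = 0.545). Its sign in Han ++ vs. Dorset was the same under all 19 alternatives, between 0.63 and 1.27. The unadjusted p was 0.162 without W8, 0.0888 without D4, 0.0645 without W7 and 0.0704 without D6. FN1 (fibronectin) and the theca and luteal sum were also high in W7 and W8. FN1 was at 4113 and 4588 CPM there and the sum at 2093 and 2034 CPM. W2 and D4 had higher sums, at 2642 and 2836 CPM. In W2, EGFR was at 82.4 CPM, exceeded in W7 and W8 alone, and FN1 was at its highest, 5091 CPM. In D4, EGFR was at its lowest, 37.9 CPM, with FN1 at 2738 CPM. The part of cell composition in the EGFR level was not tested.

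**Figure D4:**
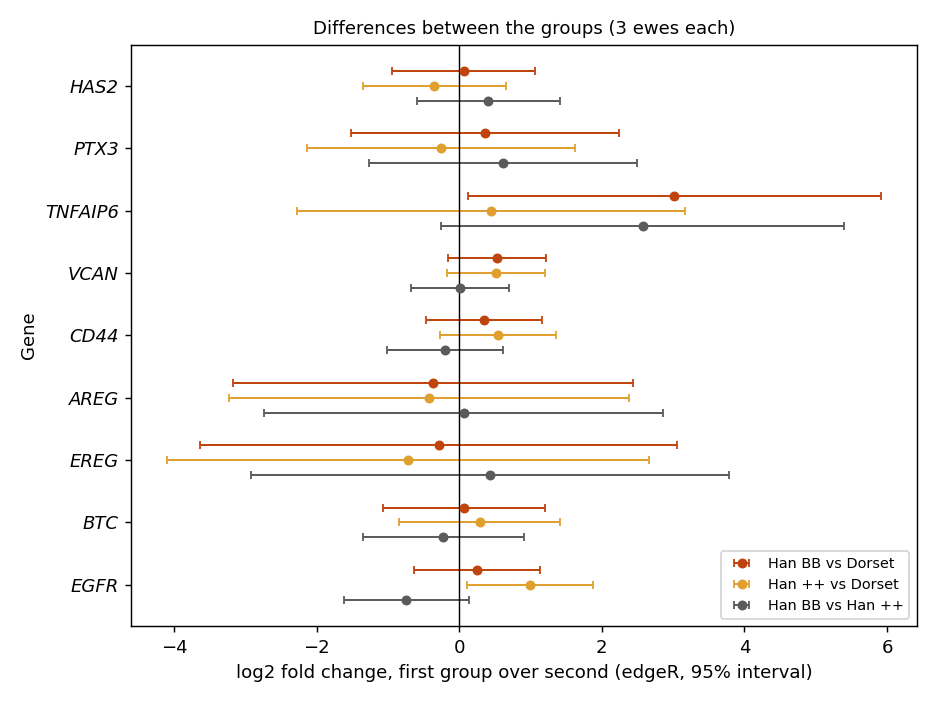
Log2 fold change of each gene (horizontal axis) for Han BB vs. Dorset, Han ++ vs. Dorset and Han BB vs. Han ++, with 95% intervals from the edgeR fit of 9 libraries (3 ewes per group). The intervals of TNFAIP6 in Han BB vs. Dorset (0.12 to 5.91) and of EGFR in Han ++ vs. Dorset (0.11 to 1.88) lie above 0 before adjustment, and AREG and EREG have the widest intervals.

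Over the 9 genes, 7 were higher and 2 lower in Han BB than in Dorset, with a median log2 fold change of 0.25 against -0.01 over all tested genes. In Han ++ vs. Dorset, 5 were higher and 4 lower (median 0.29 against -0.06), and in Han BB vs. Han ++, 6 were higher and 3 lower (median 0.06 against 0.04). W4 was first of the 9 in HAS2, PTX3 and TNFAIP6 and second in VCAN, CD44, EREG and BTC, so all 5 matrix genes were first or second in this ewe. No other ewe held such ranks in all 5: W6, second in PTX3 and TNFAIP6, was near the middle in HAS2, as was D4, second in HAS2, for PTX3 and TNFAIP6. Extreme ranks were common in W4, which was highest of the 9 for 21.3% and lowest for 21.6% of all tested genes. D5 was lowest in HAS2, VCAN and AREG, and its PTX3 level was exceeded in W4 and W6 alone.

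Other genes of the EGF system did not differ at the thresholds either. Of 15 further ligands, receptors and proteases of the family, 14 had a row and 13 were tested, and 1 of these, HBEGF, reached an unadjusted p under 0.05 in Han ++ vs. Dorset (all tested genes 5.27%). HBEGF, a heparin-binding EGFR ligand, was at 5.16 CPM in D4, 4.78 in D5 and 5.92 in D6. It was at 1.85, 3.78 and 2.88 CPM in the Han BB ewes W1, W2 and W4, and at 3.1, 1.40 and 2.03 CPM in the Han ++ ewes W6, W7 and W8. All 6 Han ewes were thus below all 3 Dorset ewes, unlike for AREG, EREG or BTC. Han and Dorset failed to overlap, in either direction, for 3.76% of all tested genes, and HBEGF was named for its unadjusted p in these same data. The log2 fold change was -1.28 in Han ++ vs. Dorset (SE 0.46, unadjusted p = 0.0182, adjusted p = 0.849) and -0.90 in Han BB vs. Dorset (SE 0.45, unadjusted p = 0.0736, adjusted p = 0.977).

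Among 12 feedback and target genes of ERK, the kinase downstream of EGFR, 11 were tested, and 2 were below an unadjusted p of 0.05 in Han ++ vs. Dorset, both with lower values in Han ++ (all tested genes 5.27%). SPRY1, a feedback inhibitor of receptor signalling, had a log2 fold change of -0.76 (unadjusted p = 0.0254, adjusted p = 0.891). IER3, an immediate early gene, had one of -1.05 (unadjusted p = 0.00532, adjusted p = 0.643), with 17.2 to 27.3 CPM in Han ++ and 33.2 to 59.5 CPM in Dorset. The list's median log2 fold change was -0.26 there, against -0.06 over all tested genes, and -0.06 in Han BB vs. Dorset, against -0.01, where 0 of 11 reached an unadjusted p under 0.05 (all tested genes 4.99%).

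For 22 further gene symbols of hyaluronan turnover and the matrix, 17 genes were tested. Of these, 2 had an unadjusted p under 0.05 in Han ++ vs. Dorset and 0 in Han BB vs. Dorset (all tested genes 5.27% and 4.99%). LYVE1, a hyaluronan receptor of lymphatic vessels, was lower in Han ++, at 9.94 against 19.5 CPM (log2 fold change -0.97, unadjusted p = 0.0306, adjusted p = 0.891). FN1 was higher in Han ++, at 4044 against 1793 CPM (1.17, unadjusted p = 0.0255, adjusted p = 0.891), and over the 9 ewes it was high where the theca and luteal sum was high, apart from D4. HAS1, the sister enzyme of HAS2, had at most 11 reads and was not tested.

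Among 27 other genes induced by LH, 21 were tested. ADAMTS1, the protease that cuts versican, was at 128 to 215 CPM in Han ++ and at 258 to 337 CPM in Dorset (log2 fold change -0.69, unadjusted p = 0.0463, adjusted p = 0.943), so VCAN and ADAMTS1 had opposite signs in this comparison. ADAMTS9, a related protease, was higher in Han BB than in Dorset (1.16, unadjusted p = 0.0114, adjusted p = 0.970), with W4 again the highest ewe at 30.2 CPM. SNAP25, a membrane fusion protein, was at 13.6 CPM or above in all 6 Han ewes and at 10.2 CPM or below in all 3 Dorset ewes. Han and Dorset failed to overlap for 3.76% of all tested genes. The log2 fold changes of SNAP25 were 0.95 in Han BB (unadjusted p = 0.00694, adjusted p = 0.968) and 0.79 in Han ++ (unadjusted p = 0.0182, adjusted p = 0.849). PTGER4, a prostaglandin E2 receptor, gave 0.73 in Han BB (unadjusted p = 0.0487, adjusted p = 0.975) and 0.98 in Han ++ (unadjusted p = 0.0132, adjusted p = 0.789). RUNX2, a transcription factor of the ovulating follicle, was higher in Han ++ only at the unadjusted level (0.96, unadjusted p = 0.0302, adjusted p = 0.891). In all, 3 of 21 were below an unadjusted p of 0.05 in Han BB vs. Dorset, 4 of 21 in Han ++ vs. Dorset and 0 of 21 in Han BB vs. Han ++, against 4.99%, 5.27% and 1.97% of all tested genes.

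**Figure D5:**
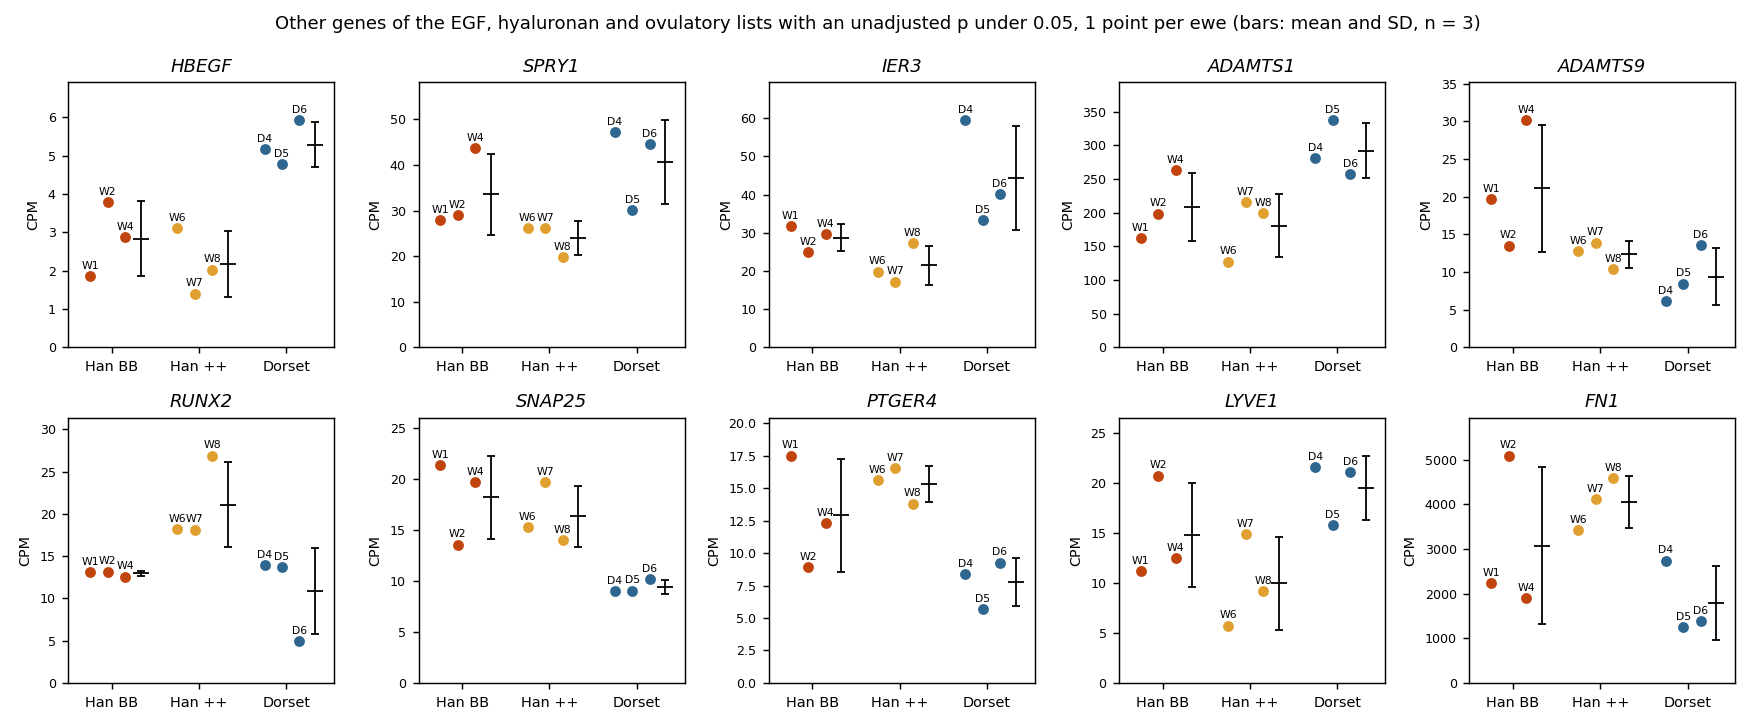
Level in CPM (vertical axis, linear, a separate scale per gene) of the 10 genes of the EGF, hyaluronan and LH lists with an unadjusted p under 0.05 in a comparison of 2 groups, 1 point per ewe, with the mean and SD of each group (n = 3). HBEGF and IER3 lie lower in all 6 Han ewes than in the 3 Dorset ewes and SNAP25 lies higher, and no gene shown passed the adjusted threshold. Han and Dorset failed to overlap for 3.76% of all tested genes.

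The marker lists are given for the same libraries, beside shares of all tested genes at an unadjusted p under 0.05 of 4.99% in Han BB vs. Dorset, 5.27% in Han ++ vs. Dorset and 1.97% in Han BB vs. Han ++. At an unadjusted p under 0.05, FST was lower in Han BB than in Dorset (log2 fold change -1.12) and HSD17B1 lower in Han BB than in Han ++ (-2.31), the members that did so of 9 tested granulosa markers. Without regard to the test, 8 of these 9 had lower values in Han BB than in Dorset (median -1.11, against -0.01 over all tested genes) and 9 of 9 lower values than in Han ++ (median -0.74, against 0.04). Of 7 tested oocyte markers, ZP2 (0.92 in Han BB vs. Han ++) and KIT (0.71 in Han ++ vs. Dorset) were higher at an unadjusted p under 0.05. KIT went against its list: 6 of the 7 were lower in Han ++ than in Dorset (median -0.73, against -0.06 over all tested genes). In Han BB vs. Han ++, 5 were higher and 2 lower (median 0.66, against 0.04). KIT lay between 39.3 and 74.2 CPM, far above the other oocyte markers. Of 10 tested myeloid and neutrophil markers, ITGAM (1.60), S100A8 (1.90), S100A9 (1.96) and S100A12 (3.25) were higher in Han BB than in Dorset, and ITGAM (1.54) and S100A12 (2.66) higher in Han ++. Of 12 oviduct and ciliated cell markers, OVGP1 (0.92) and TFF3 (2.66) were higher in Han BB than in Dorset. In Han ++ vs. Dorset, FOXJ1 (1.70), TPPP3 (1.33), OVGP1 (1.42), TFF3 (3.85) and KRT19 (0.85) were higher. FOXJ1 was also lower in Han BB than in Han ++ (-1.21). Among 11 stroma and vessel markers, DES was lower in Han BB than in Dorset (-1.23), and 0 of 11 theca and luteal markers reached an unadjusted p under 0.05. None of these passed the adjusted threshold, and their part in the levels of the 9 genes was not tested.

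For each gene, the 3 tested genes with the highest Pearson's r on log2 CPM over the 9 libraries were found, as a description with no test. HAS2 was most like TMX1 (r = 0.972), ATP6AP2 (0.958) and SRP19 (0.946). PTX3 was most like BEX5 (0.930), ECD (0.914) and LOC101101951 (0.886), and TNFAIP6 most like CAPN3 (0.942), FGB (0.910) and TTC30B (0.887). All 6 of these were highest in W4, as PTX3 and TNFAIP6 were. VCAN was most like CSF3R (0.953), the neutrophil growth factor receptor, then LOC101115846 (0.953) and PDE5A.1 (0.944). CSF3R was at 0.180 CPM in D5 (4 reads), 0.168 in D6 (3 reads) and between 0.759 and 3.50 CPM in the other ewes. CXCR2, another receptor of the neutrophil list, did not follow, at 0.902 CPM in D5 and 0.0669 in W4. CD44 was most like LOC101111967.1 (0.952), SLCO5A1 (0.932) and C-MET (0.923), all highest in W7.

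The genes most like AREG were CEACAM20 (r = 0.934), HSD17B11 (0.931) and LOC554317 (0.927), and those most like EREG were CD1B (0.930), SLC4A10 (0.910) and TOM (0.905), all of them highest in D4. BTC was most like CCP110 (0.972), ALDH1A2 (0.970) and LOC494431 (0.960), and the genes most like EGFR included ACP2 (0.945) and STIM1 (0.939), both highest in W8. None of the 9 genes appeared among the 3 genes most like another of them. The count added before the log was 0.5. With 2 in its place, AGBL4 replaced PDE5A.1 for VCAN, ITGA10 replaced HSD17B11 for AREG and ABCA4 replaced TOM for EREG. The 9 libraries are few for a choice among 16871 genes, and 1 library can set much of an order.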

How the data were processed

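Total RNA from whole ovaries was sequenced in 9 libraries. The authors aligned the reads to Oar3.1 with TopHat at default settings, kept unique reads and deposited raw counts per gene, without normalization. How reads were counted, and whether by strand, is not given in the sources used here. The labels and the methods name different Illumina kits, so antisense reads cannot be set apart. Tests used edgeR 4.0.16 under R 4.3.3 (TMM, filterByExpr, 1 quasi-likelihood fit of 9 libraries by group, Benjamini-Hochberg over 16871 of 27174 rows). The SE was taken from the log2 fold change and the F statistic. The procedure was also run on simulated counts with known changes and no outlying ewe, as a check of the code only. Alternatives used limma 3.58.1 (voom) and DESeq2 1.42.0. Figures used matplotlib 3.10.9.

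Genes and lists were chosen with earlier results of these data known. Named genes were the 9 genes, list genes with an unadjusted p under 0.05 in a comparison of 2 groups, and the 3 genes most like each of the 9. Of these last, 1 is not reported here. No row was found under the symbols EGF, SPRY2, CEMIP, CEMIP2, HMMR, CTSL and FOXL2. CEMIP2 is the present symbol of TMEM2, which had a row and was tested, so the hyaluronan list holds this gene under both symbols. HAS2, HAS1, PGR, PTGER2, S100A9 and COL1A2 were matched by gene number in RefSeq (ARS-UI_Ramb_v3.0, used for names and neighbours only). A permutation test planned for genes below the filter had no gene to apply to. The labels give each group 3 ewes, and the tests set the difference between groups against the spread between ewes of a group. PCR reads are not independent molecules.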

Additional observations from a re-analysis of the deposited data

How the results depend on the processing

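Limits: with 3 ewes per group and a common BCV of 0.472, intervals were wide, and AREG and EREG had few reads. Under the alternatives, 670 fold changes of the 9 genes were computed. None had an adjusted p under 0.05 (lowest 0.365), 601 kept their sign, and 69 turned, and 0 of the 9 genes were called in any of 75 fits and comparisons. AREG gave no value with a minimum of 1 CPM in 3 libraries, nor in Han ++ vs. Dorset with only those groups in the fit, since it then failed the filter. No paired analysis was possible because the groups are different ewes and nothing in the labels pairs them.

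Signs that turned with limma voom were those of PTX3 (-0.69), AREG (1.15), EREG (0.85) and BTC (-0.33) in Han BB vs. Dorset, HAS2 (0.0146), AREG (1.24) and EREG (1.29) in Han ++ vs. Dorset, VCAN (-0.10), AREG (-0.10) and EREG (-0.44) in Han BB vs. Han ++, and HAS2 (0.0435), PTX3 (-0.72), AREG (1.20), EREG (1.07) and BTC (-0.0515) in Han vs. Dorset. Without W4 and D6 they were HAS2 (-0.0564), PTX3 (-1.06), CD44 (-0.10) and BTC (-0.16) in Han BB vs. Dorset, TNFAIP6 (-0.0034) in Han ++ vs. Dorset, PTX3 (-0.59), VCAN (-0.0502), AREG (-0.26) and EREG (-0.49) in Han BB vs. Han ++, and PTX3 (-0.76) in Han vs. Dorset. With a term for W4 and D6 they were PTX3 at -0.0765, -0.0130 and -0.0700 in Han BB vs. Dorset, Han BB vs. Han ++ and Han vs. Dorset, and with a minimum of 1 CPM in 3 libraries VCAN at -0.0015 in Han BB vs. Han ++. The cause was not tested.

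Leaving out 1 ewe at a time turned the sign in Han BB vs. Dorset for AREG (-0.92 to 1.07), EREG (-1.20 to 3.47), EGFR (-0.12 to 0.46), HAS2 (-0.20 to 0.33), PTX3 (-0.84 to 0.83) and BTC (-0.35 to 0.29). In Han ++ vs. Dorset it did so for TNFAIP6 (-1.04 to 2.46), PTX3 (-1.91 to 0.19), AREG (-1.48 to 1.01), EREG (-1.31 to 3.03) and BTC (-0.0309 to 0.54). In Han BB vs. Han ++ it did so for VCAN (-0.0849 to 0.15), AREG (-0.43 to 1.13), BTC (-0.62 to 0.0404), PTX3 (-0.59 to 2.29), EREG (-0.49 to 0.95) and CD44 (-0.47 to 0.0379). In Han vs. Dorset it did so for HAS2 (-0.41 to 0.0603), PTX3 (-0.76 to 0.31), BTC (-0.14 to 0.37), AREG (-0.95 to 1.04) and EREG (-1.07 to 3.25).

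Over all genes, DESeq2 called 38 in Han BB vs. Dorset, 65 in Han ++ vs. Dorset, 2 in Han BB vs. Han ++ and 88 in Han vs. Dorset. Voom called 0 in Han ++ vs. Dorset and 2 in Han BB vs. Han ++, and with no filter on low counts 2, 11 and 6 genes were called in Han BB, Han ++ and Han vs. Dorset. In Han ++ vs. Dorset, 0 were called with only the compared groups in the fit and 0 with robust estimation. Without W4 and D6, 2, 22 and 6 were called in Han BB, Han ++ and Han vs. Dorset, and with the term for their split 1, 78 and 71. Leaving out 1 ewe gave 0 to 1 in Han BB vs. Dorset, 0 to 5 in Han ++ vs. Dorset and 0 to 4 in Han vs. Dorset, each highest without W4.

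Of the 9 genes, the number at an unadjusted p under 0.05 was 1 with DESeq2 in Han vs. Dorset (VCAN), 0, 2 and 1 with voom in Han BB, Han ++ and Han vs. Dorset, and 1 with no filter in Han BB vs. Han ++. It was 0 in both Han BB and Han ++ vs. Dorset without W4 and D6, and 0 in Han BB vs. Dorset with the split term. Leaving out 1 ewe gave 0 to 2 in Han BB vs. Dorset, 0 to 2 in Han ++ vs. Dorset, 0 to 3 in Han BB vs. Han ++ (3 without W6) and 0 to 3 in Han vs. Dorset (3 without D4).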
